A study of Mus musculus with 9 samples.

Results

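The TREM receptor family and its adaptor Tyrobp were read across sorted mouse cells of the brain and spleen. The 7 genes, Trem2, Tyrobp, Trem1, Trem3, Treml1, Treml2 and Treml4, were taken by symbol from 19937 genes on the arrays, and each is represented by 1 probe set. Wild-type C57BL/6 mice gave 3 arrays of Ly6C-high microglia, whose cell type the labels give as MgSCs, 3 of Ly6C-low microglia, given as bulk microglia cells, and 3 of spleen monocytes. The brain cells were collected from perfused, collagenase-digested brains after a Percoll step and sorted on CD45, CD11b and F4/80, with Ly6C and MHC II also stained. No treatment, transgene or genetic change distinguishes the groups, which differ by organ and by surface Ly6C. The labels used here do not give the age of the mice, the gates, or whether an array holds 1 animal or a pool.

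TREM proteins are cell surface receptors of myeloid cells with a single immunoglobulin-like domain. Trem1, Trem2 and Trem3 have short tails and signal through DAP12, the adaptor encoded by Tyrobp, whose cytoplasmic ITAM recruits the kinase Syk when phosphorylated. TREM2 is the family member known for microglia, where it binds lipids and apolipoproteins and supports phagocytosis and survival, while TREM1 amplifies inflammatory responses of neutrophils and monocytes.

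All values are log2 intensities as the authors deposited them, so a difference of 1 is a 2-fold difference in intensity, and levels are compared between groups for a gene and not between genes. Group values are mean ± SD over 3 arrays, differences are log2 fold changes ± standard error (SE), and adjusted p-values are from limma with Benjamini-Hochberg adjustment over all 19937 genes, two-sided, with 0.05 as the threshold. No label says that replicates were separate animals. A p-value thus sets a group difference only against the spread of these samples within groups, which may be technical.

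The identity of the sorts was checked on marker lists. Homeostatic microglia genes averaged 8.21 to 8.90 in the Ly6C-high arrays, 10.7 to 11.2 in the Ly6C-low arrays and 6.92 to 6.95 in the spleen arrays, and all 11 measured were lower in Ly6C-high than in Ly6C-low microglia. Brain endothelium genes averaged 10.6 to 11.1 in the Ly6C-high arrays, 5.92 to 7.40 in the Ly6C-low arrays and 5.76 to 5.89 in the spleen arrays, and all 11 measured were higher in Ly6C-high than in Ly6C-low microglia. Of all genes, 11% passed as lower and 4.49% as higher in Ly6C-high than in Ly6C-low microglia. The Ly6C-high arrays thus differ from the Ly6C-low arrays in endothelial as well as microglial markers, and the part of this in the differences below was not tested. Pericyte genes averaged at most 8.58 in a Ly6C-high array, 6.80 in a Ly6C-low array and 5.64 in a spleen array. The spleen monocyte arrays were also above both brain groups in neutrophil genes (10.2 to 10.7), B cell genes (8.53 to 9.21) and T cell genes (8.26 to 8.58). Among brain arrays, neutrophil genes were highest in Ly6C-low replicate 3 (9.48, against 5.89 to 7.19 in the other 5), and classical monocyte genes in Ly6C-high replicate 2 (9.39, against 6.89 to 7.67). In these bulk samples fewer cells of a type and less RNA per cell cannot be told apart.

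In the RefSeq gene order the 6 TREM genes lie in a cluster on chromosome 17, with Tyrobp on chromosome 7. The upstream sequence of 4 of them was found in the RefSeq promoter table (GRCm38.p6), and the 250 bases before the annotated start are printed for these 4. Against monocytes, Trem2 was higher and Trem1 and Treml4 were lower in both brain groups, while Treml1 passed in no comparison. Both strands were searched for the core bound by the myeloid factor PU.1 (GAGGAA) and for an E-box (CACGTG). They were also searched for a loose form of the AP-1 site (TGANTCA, where N is any base). The site of C/EBP factors (TTGCNNAA) and the site of GATA factors (AGATAA) were searched as well. Capitals mark every match, written on the strand printed.
Trem2, chr17:48346151-48346400, + strand: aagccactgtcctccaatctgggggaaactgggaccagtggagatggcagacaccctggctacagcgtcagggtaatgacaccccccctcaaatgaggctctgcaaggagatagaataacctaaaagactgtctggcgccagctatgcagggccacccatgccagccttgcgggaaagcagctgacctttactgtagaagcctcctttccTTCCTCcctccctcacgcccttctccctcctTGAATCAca
Trem1, chr17:48232489-48232738, + strand: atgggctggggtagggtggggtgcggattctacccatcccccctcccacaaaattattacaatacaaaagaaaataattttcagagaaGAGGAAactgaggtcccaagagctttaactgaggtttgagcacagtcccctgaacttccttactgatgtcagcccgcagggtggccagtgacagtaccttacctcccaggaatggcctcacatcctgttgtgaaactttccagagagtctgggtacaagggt
Treml4, chr17:48264045-48264294, + strand: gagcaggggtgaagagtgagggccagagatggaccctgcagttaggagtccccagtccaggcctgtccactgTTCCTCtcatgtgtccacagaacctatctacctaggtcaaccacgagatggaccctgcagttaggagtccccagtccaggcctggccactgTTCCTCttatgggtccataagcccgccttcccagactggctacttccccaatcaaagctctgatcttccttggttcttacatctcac
Treml1, chr17:48359666-48359915, + strand: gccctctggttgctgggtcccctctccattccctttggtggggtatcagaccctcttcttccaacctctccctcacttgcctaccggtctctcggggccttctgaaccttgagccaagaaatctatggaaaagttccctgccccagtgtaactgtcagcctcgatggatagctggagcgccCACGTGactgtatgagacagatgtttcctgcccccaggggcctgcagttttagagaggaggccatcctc

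The Trem2 window held 1 PU.1 core, 35 bases before the start. At its end, 3 bases before the start, it held 1 match to the loose AP-1 pattern. That match reads TGAATCA, with A in the place of N, so it need not be an AP-1 site. The Trem1 window held 1 PU.1 core and the Treml4 window held 2, while the Treml1 window held an E-box and no PU.1 core. The Treml4 window also held an exact repeat of 40 bases, at positions 26 and 117 of the window, and its PU.1 cores, at positions 73 and 164, lie as far apart as the copies (91 bases). Of 32851 upstream windows of the same length, 23.3% held a PU.1 core, 6.75% a match to the loose AP-1 pattern and 6.02% the E-box. The C/EBP match was in 9.56% and the GATA match in 9.99%. A PU.1 core in such a window is thus common. These matches are letters in the reference sequence, and binding was not measured in this series.

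Trem2 was highest in Ly6C-low microglia and passed the threshold in all 3 comparisons. Probe set 10445781 (gene ID 83433) read 7.91, 7.46 and 8.11 in Ly6C-high microglia, 10.54, 11.12 and 10.65 in Ly6C-low microglia, and 7.02, 7.11 and 7.13 in spleen monocytes. No 2 groups overlapped, and the order was Ly6C-low, Ly6C-high, monocytes. Trem2 averaged 7.83 ± 0.33 in the Ly6C-high arrays and 10.77 ± 0.31 in the Ly6C-low arrays and was lower by 7.69-fold (log2 fold change -2.94 ± 0.20, adjusted p = 6.40e-05). Ly6C-low microglia were 12.8-fold above monocytes at 7.09 ± 0.06 (3.68 ± 0.20, adjusted p = 1.17e-05).

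Ly6C-high microglia exceeded monocytes in Trem2 by much less, 0.74 ± 0.20 on the log2 scale or 1.67-fold (adjusted p = 0.0319). The call was lost in 8 of 21 alternatives. It was lost without Ly6C-high replicate 1 (0.70, adjusted p = 0.0778) or 3 (0.59, 0.0781), without Ly6C-low replicate 3 (0.74, 0.0501), and without monocyte replicate 1 (0.70, 0.1018), 2 (0.75, 0.0879) or 3 (0.76, 0.0781). The difference stayed positive in every alternative run, from 0.59 to 1.24, the highest under cyclic loess. Several of these runs, such as those on probe sets or without a Ly6C-low array, could not change its size. The plot of the 7 genes by array shows the separated groups of Trem2.

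**Figure D1:**
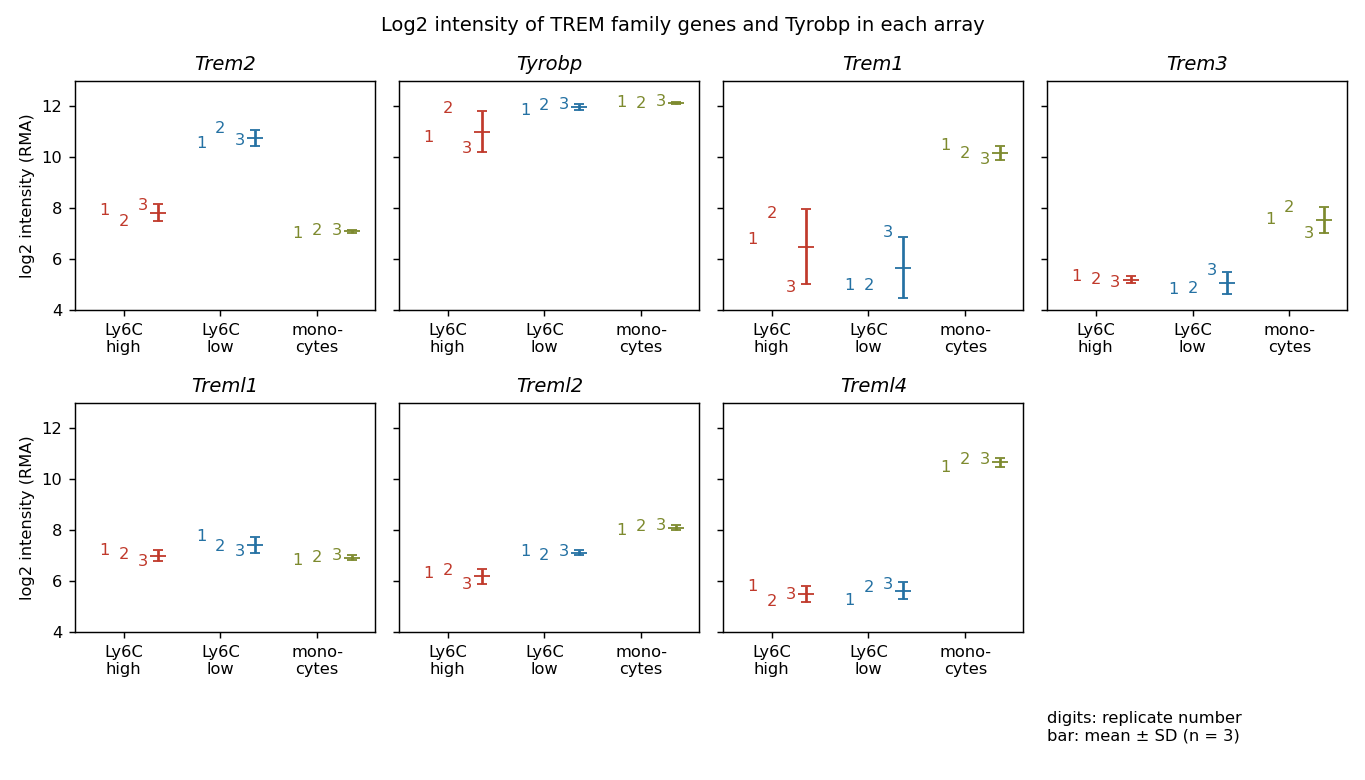
Log2 intensity (RMA, vertical axis) of each gene in each of the 9 arrays, with digits for the replicate number and a bar for mean ± SD (n = 3) in Ly6C-high microglia, Ly6C-low microglia and spleen monocytes. Trem2 stands between 10.54 and 11.12 in Ly6C-low microglia, above every other array, while Trem1, Trem3, Treml2 and Treml4 are highest in the monocytes and Trem1 is spread within both brain groups.

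Tyrobp, which encodes the adaptor that Trem2 needs to signal, did not share this pattern. Probe set 10551883 (gene ID 22177) read 10.80, 11.91 and 10.33 in Ly6C-high microglia, 11.83, 12.03 and 12.07 in Ly6C-low microglia, and 12.15, 12.11 and 12.19 in monocytes. Ly6C-high replicate 2 lay within the range of the Ly6C-low arrays, and the other Ly6C-high arrays lay below all of them. The means were 11.01 ± 0.81 in the Ly6C-high arrays and 11.98 ± 0.13 in the Ly6C-low arrays, a difference that did not pass (-0.97 ± 0.34, 95% interval -1.74 to -0.20, adjusted p = 0.0950). Without Ly6C-high replicate 2 it passed (-1.42, adjusted p = 9.31e-04). That array was also the highest of its group in classical monocyte genes and in Fcer1g (9.67, 11.01 and 9.94), the gene of the Fc receptor gamma chain, and the part of these cells in its Tyrobp level was not tested.

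Against monocytes (12.15 ± 0.04), Tyrobp fell by 1.14 ± 0.34 on the log2 scale in Ly6C-high microglia (2.20-fold, adjusted p = 0.0438). The call was lost in 13 of 21 alternatives, among them quantile normalization (-0.80, adjusted p = 0.1085) and cyclic loess (-0.56, 0.2456). It was also lost without Ly6C-high replicate 1 (-1.03, 0.1166) or 3 (-0.80, 0.0864), and without any single Ly6C-low array (0.0622, 0.0685 and 0.0678 for replicates 1 to 3) or monocyte array (0.1134, 0.1083 and 0.1097). Between Ly6C-low microglia and monocytes Tyrobp differed by -0.17 ± 0.34 (95% interval -0.94 to 0.60, adjusted p = 0.8399), and the sign turned under cyclic loess (0.17). As deposited, every Ly6C-low array lay below every monocyte array. The SE is shared with the Ly6C-high arrays, where the SD of Tyrobp was 0.81, against 0.13 in Ly6C-low microglia and 0.04 in monocytes.

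The change of the receptor was set against that of its adaptor within each array. Trem2 minus Tyrobp was -2.89, -4.45 and -2.22 in Ly6C-high microglia against -1.30, -0.91 and -1.42 in Ly6C-low microglia and -5.12, -5.00 and -5.06 in monocytes, and only differences between groups are read from it. The Ly6C-high arrays lay below all Ly6C-low arrays, so Trem2 fell by 1.98 more on the log2 scale than Tyrobp did between these groups. The exact permutation test of this difference (-1.98) gave a two-sided p = 0.1, the smallest that 3 against 3 arrays allow. Ly6C-low microglia exceeded monocytes in this difference by 3.85 and Ly6C-high microglia exceeded them by 1.88 (exact p = 0.1 each). Over the 9 such comparisons made, the Benjamini-Hochberg adjusted value of these exact tests was 0.1125, so none could pass.

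Trem2 was next set against the homeostatic microglia genes, among which it is not counted. Trem2 minus the mean of the 11 homeostatic genes was -0.30, -0.78 and -0.79 in Ly6C-high microglia against -0.20, -0.09 and -0.44 in Ly6C-low microglia, ranges that overlap (difference -0.38, exact permutation p = 0.2). Against monocytes (0.11, 0.15 and 0.20) the difference was -0.78 for Ly6C-high and -0.40 for Ly6C-low microglia, with no overlap (exact permutation p = 0.1 each). Tyrobp minus the same mean was 2.59, 3.67 and 1.43 in Ly6C-high microglia against 1.09, 0.82 and 0.99 in Ly6C-low microglia, so Tyrobp was lower in Ly6C-high microglia by 1.60 less than those genes were (exact permutation p = 0.1).

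**Figure D2:**
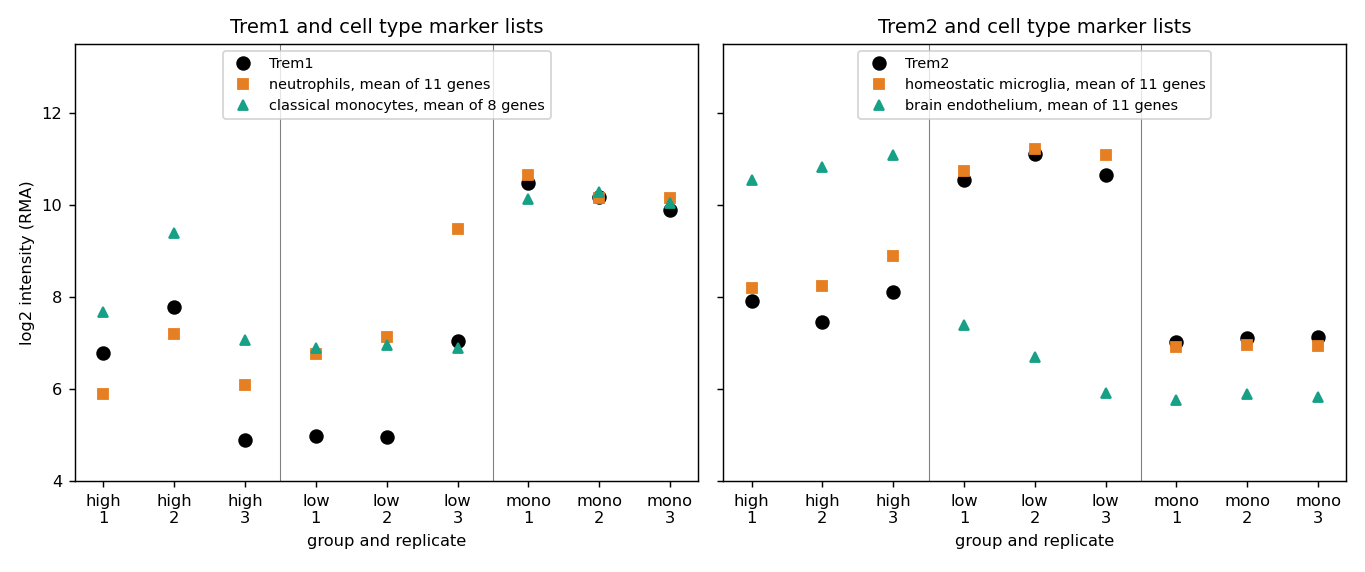
Log2 intensity (RMA) in each array of Trem1 with the means of the neutrophil and classical monocyte lists (left), and of Trem2 with the means of the homeostatic microglia and brain endothelium lists (right). Positions of different genes on the axis are not comparable as amounts. Trem2 goes up and down across groups with the homeostatic list, and among brain arrays Trem1 is highest in Ly6C-high replicates 1 and 2 and Ly6C-low replicate 3.

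Trem1, the inflammatory receptor of neutrophils and monocytes, was highest in the monocyte arrays and uneven among the brain arrays. Probe set 10445746 (gene ID 58217) read 6.79, 7.78 and 4.90 in Ly6C-high microglia, 4.98, 4.95 and 7.06 in Ly6C-low microglia, and 10.47, 10.17 and 9.90 in monocytes. Every brain array lay below every monocyte array, and the brain groups overlapped. Trem1 fell by 3.69 ± 0.77 in Ly6C-high microglia (12.9-fold, adjusted p = 0.0109) and by 4.52 ± 0.77 in Ly6C-low microglia (22.9-fold, adjusted p = 0.0048) against monocytes. Between the brain groups it differed by 0.82 ± 0.77 with a wide 95% interval of -0.92 to 2.57 (adjusted p = 0.5065).

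Markers of other myeloid cells also varied among the brain arrays. Ly6C-high replicate 2 (7.78) had the highest classical monocyte mean of the brain arrays (9.39), with Ccr2, the monocyte chemokine receptor, at 9.92 against 7.62 and 6.20 in Ly6C-high replicates 1 and 3. Ly6C-low replicate 3 (7.06) had the highest neutrophil mean (9.48), with the granule gene Ngp at 10.61 against 6.43 and 7.06 in Ly6C-low replicates 1 and 2. Ly6C-high replicate 1 (6.79) had a classical monocyte mean of 7.67 and the lowest neutrophil mean of the 9 arrays (5.89). The part of these cells in the Trem1 level was not tested.

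Trem3, a DAP12-coupled receptor of mouse myeloid cells, had a smaller difference in the same direction. Probe set 10445753 (gene ID 58218) read 5.34, 5.19 and 5.07 in Ly6C-high microglia, 4.79, 4.86 and 5.56 in Ly6C-low microglia, and 7.55, 8.02 and 7.03 in monocytes. The brain groups overlapped, and both lay below every monocyte array. Trem3 fell by 2.34 ± 0.28 in Ly6C-high microglia (5.05-fold, adjusted p = 7.15e-04) and by 2.47 ± 0.28 in Ly6C-low microglia (5.52-fold, adjusted p = 5.51e-04) against monocytes. The difference between the brain groups was 0.13 ± 0.28 (95% interval -0.51 to 0.76, adjusted p = 0.7794). Within the brain arrays the highest Trem3 value was in Ly6C-low replicate 3, while that of Trem1 was in Ly6C-high replicate 2.

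Treml4, a receptor known from spleen macrophages, dendritic cells and Ly6C-low monocytes of the mouse, had the largest difference of the 7 genes. Probe set 10445758 (gene ID 224840) read 5.80, 5.20 and 5.47 in Ly6C-high microglia, 5.25, 5.76 and 5.86 in Ly6C-low microglia, and 10.47, 10.78 and 10.76 in monocytes. It fell by 5.18 ± 0.21 in Ly6C-high microglia (36.2-fold, adjusted p = 3.88e-06) and by 5.05 ± 0.21 in Ly6C-low microglia (33.1-fold, adjusted p = 3.68e-06) against monocytes. The brain groups overlapped and differed by -0.13 ± 0.21 (95% interval -0.60 to 0.34, adjusted p = 0.6985). It was lowest among brain arrays in Ly6C-high replicate 2, the one with the highest Trem1. Nonclassical monocyte genes averaged 9.03 to 9.24 in the monocyte arrays and 7.16 to 7.74 in all brain arrays. The dendritic cell mean was likewise higher in every spleen array (6.76 to 7.04) than in any brain array (5.72 to 6.15). What either cell type adds to the Treml4 differences was not tested.

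Trem3 and Treml4 in both brain groups, and Trem1 in Ly6C-low microglia, had group means under the median of all gene means (6.13). The table used here has no detection calls, so these brain levels and the folds built on them carry no statement on whether the gene was detected.

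Treml2, a receptor of B cells, neutrophils and macrophages, was graded over the 3 groups. Probe set 10445767 (gene ID 328833) read 6.30, 6.41 and 5.87 in Ly6C-high microglia, 7.15, 7.02 and 7.18 in Ly6C-low microglia, and 7.98, 8.13 and 8.17 in monocytes. No 2 groups overlapped. It fell by 0.92 ± 0.15 in Ly6C-high against Ly6C-low microglia (1.90-fold, adjusted p = 0.0039), by 1.90 ± 0.15 in Ly6C-high microglia against monocytes (3.73-fold, adjusted p = 8.67e-05), and by 0.97 ± 0.15 in Ly6C-low microglia against monocytes (1.97-fold, adjusted p = 0.0031). All 3 calls held in all 21 alternatives. The B cell list, whose cells also express Treml2, averaged 5.98 to 6.21 in the Ly6C-high arrays, 5.43 to 5.85 in the Ly6C-low arrays and 8.53 to 9.21 in the spleen arrays. The neutrophil list averaged 5.89 to 7.19 in the Ly6C-high arrays, 6.76 to 9.48 in the Ly6C-low arrays and 10.2 to 10.7 in the spleen arrays, with 2 of 11 genes lower and 0 higher in Ly6C-high than in Ly6C-low microglia. Of all genes, 11% were lower and 4.49% higher in that comparison. The part of B cells and neutrophils in the Treml2 differences was not tested.

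Treml1, known from platelets and megakaryocytes, where it is stored in granules, passed in no comparison. Probe set 10445789 (gene ID 71326) read 7.20, 7.04 and 6.77 in Ly6C-high microglia, 7.75, 7.34 and 7.15 in Ly6C-low microglia, and 6.83, 6.91 and 7.03 in monocytes. The Ly6C-low arrays lay above all monocyte arrays, and the Ly6C-high arrays overlapped both other groups. The differences were -0.41 ± 0.18 between Ly6C-high and Ly6C-low microglia (95% interval -0.81 to -0.01, adjusted p = 0.1704), 0.08 ± 0.18 between Ly6C-high microglia and monocytes (-0.32 to 0.48, 0.7272), and 0.49 ± 0.18 between Ly6C-low microglia and monocytes (0.09 to 0.90, 0.1131). With array weights the last of these passed (0.39, adjusted p = 0.0344). Platelet genes averaged 5.98 to 6.26 in the Ly6C-high arrays, 6.15 to 6.44 in the Ly6C-low arrays and 7.19 to 7.55 in the spleen arrays, and their part in the Treml1 level was not tested.

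Between Ly6C-high and Ly6C-low microglia, 2 of the 7 genes passed, Trem2 and Treml2, both lower, where 15.4% of all genes passed, 4.49% higher and 11% lower. Without overlap between the brain groups were 2 of the 7, and 30.1% of all genes. Against monocytes, 6 of 7 passed for Ly6C-high microglia, Trem2 higher and 5 lower, with a background of 21.5% (6.88% higher and 14.6% lower), and 6 did not overlap (background 45.9%). For Ly6C-low microglia against monocytes 5 of 7 passed, Trem2 higher and 4 lower, with a background of 14.5% (6.80% higher and 7.71% lower), and none of the 7 overlapped (background 42.3%). Median log2 fold changes of the 7 genes were -0.41, -1.90 and -0.97 in these comparisons, beside 0.05, 0.09 and 0.05 over all genes. The comparisons share arrays, so their counts are not independent, and the split of all calls depends on scaling: calls that were higher in Ly6C-high microglia made up 29.1% of those against Ly6C-low microglia as deposited and 40.8% under both quantile normalization and cyclic loess, and 32.0% of those against monocytes as deposited, 45.1% under quantile normalization and 43.5% under cyclic loess.

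**Figure D3:**
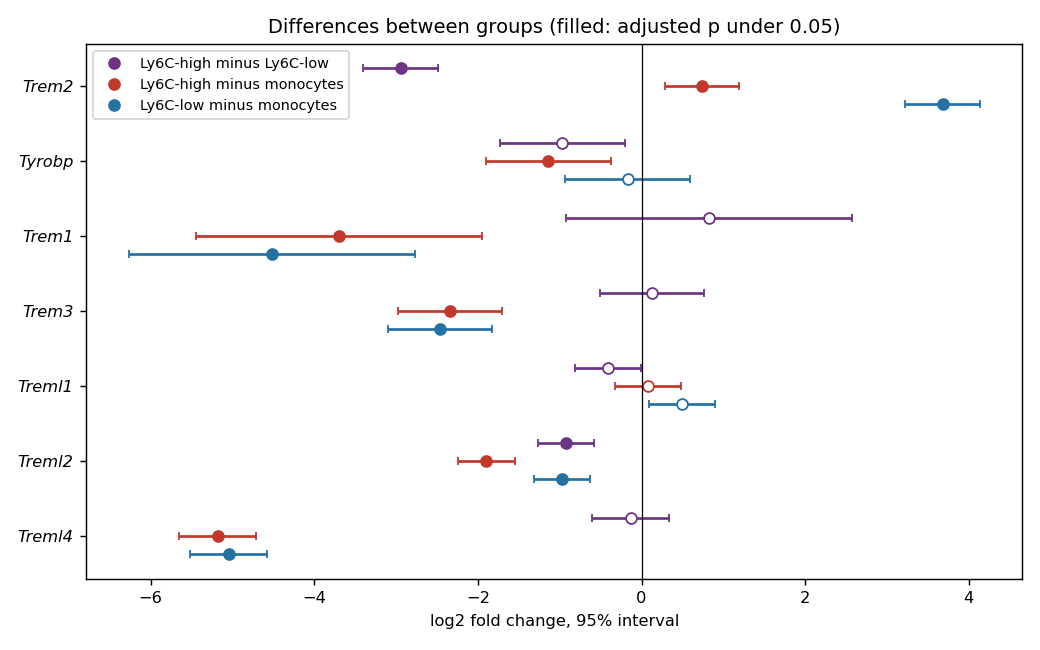
Log2 fold change (horizontal axis) with its 95% interval for each gene in the 3 comparisons, with filled points for an adjusted p under 0.05. Trem2 alone has a filled point to the right of 0, Treml2 is filled in all 3 comparisons, and the Trem1 intervals are the widest.

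The 6 TREM genes were then read in the order they have on chromosome 17, with 3 protein-coding genes of the gene table on each side and those between, 13 genes in all. The order was 1700122O11Rik, 9830107B12Rik (older name Trem5), A530064D06Rik (Trem4), Trem1, Trem3, Treml4, Treml2, B430306N03Rik (Treml6), Trem2, Treml1, Nfya, Oard1 and Apobec2. On the Trem1 side 2 of 3 genes were lower in brain than in spleen cells: A530064D06Rik (-2.15 ± 0.47 in Ly6C-high microglia, adjusted p = 0.0137, and -3.36 ± 0.47 in Ly6C-low microglia, 0.0018) and 9830107B12Rik (-1.04 ± 0.26, 0.0232, and -0.97 ± 0.26, 0.0385). On the Treml1 side Nfya, a subunit of the CCAAT-binding factor, fell by 1.17 ± 0.24 in Ly6C-high against Ly6C-low microglia (adjusted p = 0.0110) and Oard1, an ADP-ribose hydrolase, by 1.02 ± 0.16 (0.0034), and Apobec2 was 1.37 ± 0.33 above monocytes in Ly6C-low microglia (0.0257).

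Trem2 thus stood between neighbours that did not share its size of difference. B430306N03Rik, on its one side, read 6.64, 7.66 and 6.04 in Ly6C-high microglia, 7.11, 7.68 and 8.44 in Ly6C-low microglia and 7.81, 8.36 and 8.61 in monocytes and passed in no comparison (adjusted p = 0.2131, 0.0512 and 0.5779). Of the 7 measured neighbours, 2 passed between the brain groups, 2 for Ly6C-high microglia against monocytes and 3 for Ly6C-low microglia against monocytes, where 15.4%, 21.5% and 14.5% of all genes passed.

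**Figure D4:**
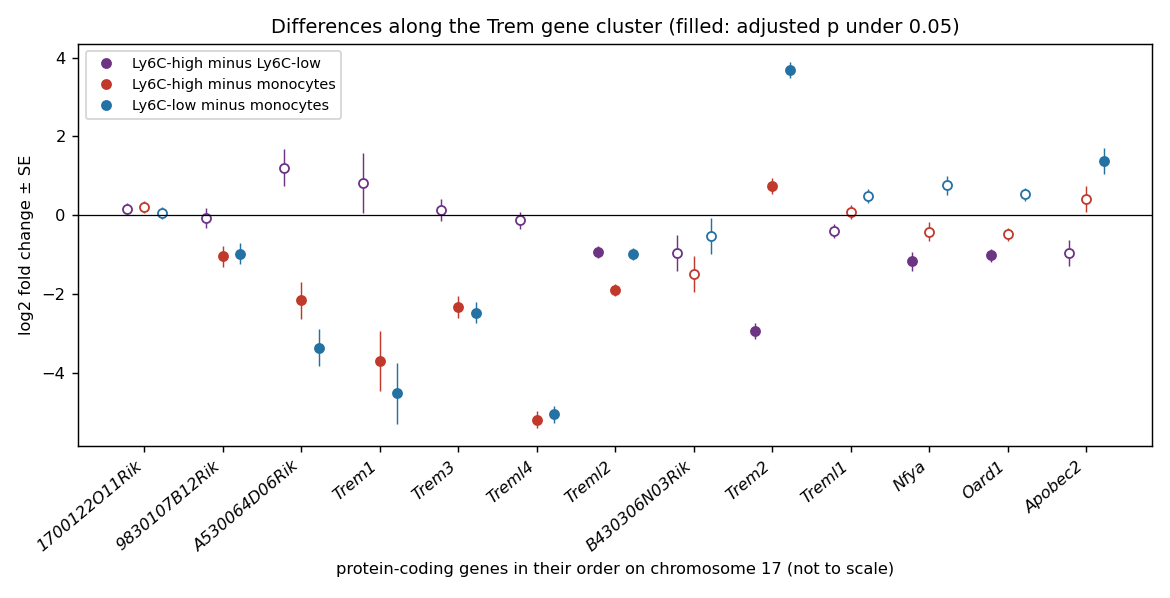
Log2 fold change ± SE (vertical axis) of 13 protein-coding genes in their order on chromosome 17, spaced evenly and not to scale, for the 3 comparisons, with filled points for an adjusted p under 0.05. Genes from 9830107B12Rik to Treml2 lie below 0 against monocytes, and Trem2 lies at 3.68 for Ly6C-low microglia.

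Genes whose pattern over the 9 arrays was most like each member were found by Pearson correlation among 9599 genes with named symbols and a mean at or above the median, as a description without a test. The 9 arrays form 3 groups, so a high r mostly reflects shared differences between groups. For Trem2 the 5 closest were Mymk (r = 0.993), Phyhd1, Ctsf, which encodes a cathepsin, Ebf3 and the sulfotransferase gene Gal3st4 (0.990). For Tyrobp they were Cpsf1 (0.985), Hps5, Myo1f, an unconventional myosin of leukocytes, Reep4 and Etv6 (0.980). Trem1 was closest to Acaa2 (0.983), Bst1, Clec4d, Taldo1 and the neutrophil collagenase gene Mmp8 (0.973), Trem3 to Pvr (0.989), Ints7, Adam8, Hdc and Jarid2 (0.975), Treml2 to Supt5 (0.991), Grk3, Ptk2b, Dusp2 and Lrrc8d (0.978), and Treml4 to the chemokine receptor gene Ccr7 (0.994), Gramd3, Il12rb2, Adam8 and Mirt2 (0.991).

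The other adaptors of the list were read beside Tyrobp. Hcst, which encodes DAP10 and neighbours Tyrobp on chromosome 7, read 6.17, 7.55 and 6.20 in Ly6C-high microglia, 7.48, 7.50 and 7.25 in Ly6C-low microglia, and 9.55, 9.16 and 9.57 in monocytes. The brain groups overlapped (-0.77 ± 0.34, adjusted p = 0.1842), and Hcst fell by 2.79 ± 0.34 in Ly6C-high microglia (adjusted p = 8.31e-04) and by 2.02 ± 0.34 in Ly6C-low microglia (0.0048) against monocytes. Fcer1g read 11.20, 11.77 and 11.68 in Ly6C-low microglia, above the Ly6C-high values given earlier, and fell by 1.34 ± 0.32 in Ly6C-high against Ly6C-low microglia (adjusted p = 0.0226). It fell by 1.79 ± 0.32 in Ly6C-high microglia against monocytes (11.96, 11.98 and 12.04; adjusted p = 0.0054). Cd247, the T cell receptor zeta chain, passed in no comparison. Of the 3 adaptors 1 passed between the brain groups, but 0 without Ly6C-high replicate 1 or 3 or Ly6C-low replicate 2 or 3, and 2 without Ly6C-high replicate 2. Of all genes, 15.4% passed between the brain groups.

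Of 9 measured receptors other than TREM proteins that couple to DAP12, 2 fell between Ly6C-high and Ly6C-low microglia and 7 did not pass (list median 0.13), where 11% of all genes fell. Siglech, a sialic acid-binding lectin of microglia that is also in the homeostatic list, fell by 3.15 ± 0.36 (adjusted p = 6.31e-04). Clec5a, a C-type lectin receptor, fell by 2.90 ± 0.42 (adjusted p = 0.0021). Clec5a read 4.77, 5.28 and 5.14 in Ly6C-high microglia against 7.06, 8.34 and 8.49 in Ly6C-low microglia. Against monocytes, Pilrb1, Cd300lb and the NK receptor gene Klrk1 were lower in both brain groups, at -3.21, -2.91 and -2.87 in Ly6C-high microglia and -3.48, -3.25 and -2.71 in Ly6C-low microglia (adjusted p from 3.23e-05 to 0.0012). Klrk1 is also known from the NK and T cells whose genes were higher in the spleen arrays. Clec5a fell by 2.04 in Ly6C-high microglia (adjusted p = 0.0103), and Siglech was 2.81 higher in Ly6C-low microglia than in monocytes (0.0011).

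Most of the genes that act below DAP12 were lower in Ly6C-high microglia than in either other group. Of all genes, 11% passed as lower there than in Ly6C-low microglia and 14.6% as lower than in monocytes. Against Ly6C-low microglia 17 of 22 fell, 0 rose and 5 did not pass (list median -1.71, beside 0.05 over all genes), and against monocytes 19 fell, 0 rose and 3 did not pass (median -1.95, beside 0.09). The largest decreases against Ly6C-low microglia were in the B cell linker gene Blnk (-3.60 ± 0.39, adjusted p = 0.0005), Inpp5d, which encodes the lipid phosphatase SHIP1 (-2.80 ± 0.19, 6.45e-05), the exchange factor gene Vav1 (-2.74 ± 0.38, 0.0018), Pik3cg (-2.53 ± 0.25, 3.29e-04), the kinase gene Btk (-2.40 ± 0.49, 0.0119) and the adaptor gene Lcp2 (-2.25 ± 0.47, 0.0132). Leaving out Ly6C-low replicate 2 gave 10 genes, and leaving out replicate 3 gave 11. Leaving out Ly6C-high replicate 2 gave 19.

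The kinase and the phospholipase nearest the receptor had a wide spread in Ly6C-high microglia. Syk read 5.99, 8.17 and 6.48 in Ly6C-high microglia, 8.80, 8.67 and 8.77 in Ly6C-low microglia, and 10.04, 10.17 and 10.18 in monocytes. It fell by 1.87 ± 0.46 in Ly6C-high against Ly6C-low microglia (adjusted p = 0.0270), and the groups did not overlap. Plcg2 read 5.88, 7.69 and 6.53 in Ly6C-high microglia, 8.67, 8.91 and 8.88 in Ly6C-low microglia, and 8.88, 8.82 and 8.85 in monocytes, and fell by 2.12 ± 0.38 (adjusted p = 0.0058). Both were highest in Ly6C-high replicate 2, like Tyrobp. Inpp5d did not have that spread, with 8.01, 8.73 and 8.62 in Ly6C-high microglia against 11.18, 11.31 and 11.27 in Ly6C-low microglia and 10.21, 10.57 and 10.36 in monocytes.

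Between Ly6C-low microglia and monocytes the same genes were mixed, with 4 higher, 3 lower and 15 that did not pass (list median -0.045, beside 0.05). Blnk rose by 1.63 ± 0.39 (adjusted p = 0.0255), Vav2 by 1.35 ± 0.25 (0.0075), Pik3cg by 0.91 ± 0.25 (0.0460) and Inpp5d by 0.87 ± 0.19 (0.0167). The paracaspase gene Malt1 (-1.37 ± 0.38, 0.0455) and the kinase gene Ptk2b (-0.95 ± 0.17, 0.0060) had the largest decreases among genes past the threshold. The count of 7 was 2 without Ly6C-low replicate 2 or 3 or monocyte replicate 1 or 3, and 3 without monocyte replicate 2. It was 10 with only the 6 arrays compared, with array weights, or without Ly6C-high replicate 2. Without overlap between the groups, 7 of the genes were higher and 7 lower. Of all genes, 6.80% passed as higher, 7.71% passed as lower and 42.3% did not overlap. Syk differed by -1.39 ± 0.46 (adjusted p = 0.0888) and Plcg2 by -0.03 ± 0.38 (0.9785). The Syk values of these groups did not overlap, with every Ly6C-low array below every monocyte array. Its SE is shared with the Ly6C-high arrays, where its SD was 1.14, against 0.07 in Ly6C-low microglia and 0.08 in monocytes.

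**Figure D5:**
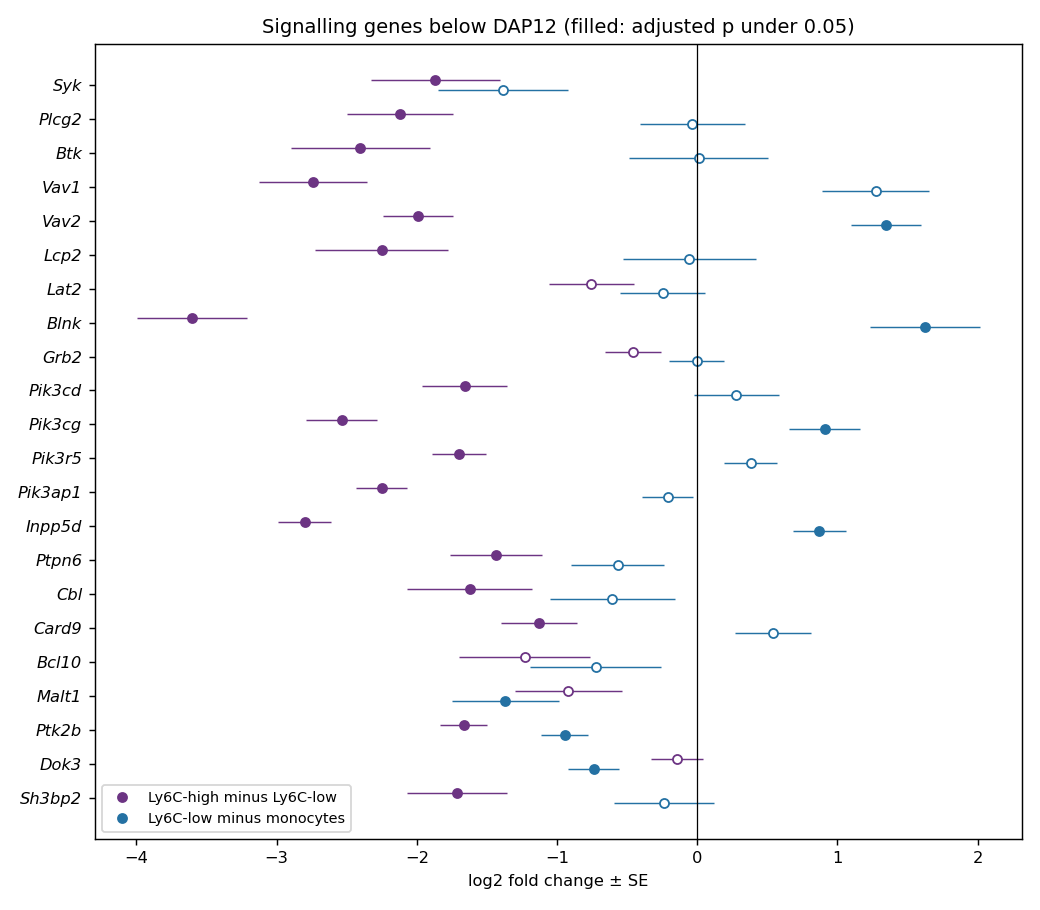
Log2 fold change ± SE (horizontal axis) of the 22 genes that act below DAP12, for Ly6C-high minus Ly6C-low microglia and for Ly6C-low microglia minus monocytes, with filled points for an adjusted p under 0.05. Ly6C-high minus Ly6C-low lies to the left of 0 for all 22 genes, 17 of them filled, and Ly6C-low minus monocytes lies on both sides.

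Among 9 measured ligands and processing enzymes of TREM2, 3 fell in Ly6C-high against Ly6C-low microglia, 0 rose and 6 did not pass (list median -0.43). Of all genes, 11% fell and 4.49% rose in this comparison. Apoe, a lipoprotein bound by TREM2, read 11.31, 11.57 and 12.24 in Ly6C-high microglia, 12.63, 12.64 and 12.70 in Ly6C-low microglia, and 11.60, 11.35 and 11.57 in monocytes. It fell by 0.95 ± 0.22 (adjusted p = 0.0188), and Ly6C-low microglia were 1.15 ± 0.22 above monocytes (0.0081). The gamma-secretase subunit genes Psenen and Ncstn fell by 1.57 ± 0.34 (0.0144) and 1.21 ± 0.16 (0.0016). Without Ly6C-low replicate 2 the count was 1. Against monocytes 4 of 9 fell in Ly6C-high microglia, Psenen (-1.73), Adam17 (-1.52), Psen2 (-1.22) and Ncstn (-0.98), and in Ly6C-low microglia Apoe rose and Psen2 fell by 0.79 on the log2 scale. That count of 2 was 4 under quantile normalization, cyclic loess and array weights. Of all genes, 14.6% fell in Ly6C-high microglia against monocytes, and 6.80% rose and 7.71% fell in Ly6C-low microglia.

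Disease-associated microglia are known to raise a further 13 measured genes in a TREM2-dependent way. In Ly6C-high against Ly6C-low microglia 11% of all genes fell and 4.49% rose. Of the 13 genes, 7 fell, 0 rose and 6 did not pass (list median -1.06). The largest 6 were in Timp2 (-2.85 ± 0.44, adjusted p = 0.0029), the tetraspanin gene Cd9 (-2.40 ± 0.31, 0.0011), Ctsl (-1.79 ± 0.40, 0.0168), Gusb (-1.62 ± 0.35, 0.0141), the integrin gene Itgax (-1.42 ± 0.13, 2.34e-04) and the receptor kinase gene Axl (-1.06 ± 0.22, 0.0113). Against monocytes, Ly6C-high microglia had 8 lower and 0 higher (list median -1.25, beside 0.09 over all genes). The lowest were Ccl6 (-3.51), Clec7a (-2.71), Itgax (-2.67) and the lipase gene Lpl (-2.59). Of all genes, 14.6% fell and 6.88% rose in that comparison, and 6.80% rose and 7.71% fell in Ly6C-low microglia against monocytes. Ly6C-low microglia had 4 higher, Timp2 (1.91), Cd63 (1.65), Ctsl (1.54) and Cd9 (1.31), and 4 lower, with Clec7a (-2.96) and Lpl (-2.12) the lowest against monocytes. The 8 genes lower in Ly6C-high microglia than in monocytes were 5 without monocyte replicate 2 or 3. The 8 called for Ly6C-low microglia were 0 higher and 4 lower without Ly6C-low replicate 2 or 3 or monocyte replicate 2 or 3. Without monocyte replicate 1 they were 1 higher and 4 lower, so the higher calls were the ones lost.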

How the data were processed

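RNA of 9 sorted samples, 3 per group, was measured on Affymetrix whole-transcript arrays. The authors deposited log2 intensities per probe set, and the submitters' processing notes name RMA and oligo with no version. Other settings were not given in the sources used here. This table holds 34760 probe sets with values from 2.54 to 13.81 and array medians of 5.83 to 5.96. The number of arrays limits the precision. GEO's platform annotation gives 1 symbol to 21640 probe sets, several to 1321 and none to 11799, and RefSeq gene IDs changed 0 symbols. The brightest probe set by mean over the 9 arrays stood for a gene, which left 19937 genes.

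Values were used as deposited. A model of the 3 groups was fitted over the 9 arrays with limma 3.58.1 (eBayes) under R 4.3.3 and tested on simulated data. Differences within arrays had exact permutation tests. Named were the 7 members, up to 6 list genes with the largest change past the threshold, Hcst, Fcer1g, Syk, Plcg2, Inpp5d and Apoe, the 5 genes most like a member whose group means spanned at least 1, and chromosome neighbours; Ccr2 and Ngp were marker genes a result turned on, and Cd247 was named after its values were seen. The members and lists were chosen with earlier results of these data known. Numbers in the titles were not used to pair arrays in the main model, and the labels used here do not say whether they mark pairs. Deviations of same-numbered arrays from their group means correlated at -0.07 to 0.30, which cannot settle this with 3 arrays per group. The highest was between Ly6C-high and Ly6C-low replicate 1, which also share a description number. Alternatives covered scaling, probe sets, filters, array weights, blocks and left-out arrays. With 1 probe set per member, the alternatives on probe sets could change the adjusted p of a member but not its difference.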

Additional observations from a re-analysis of the deposited data

How the results depend on the processing

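Of the member calls, Trem2 between the brain groups and for Ly6C-low microglia against monocytes, Trem1, Trem3 and Treml4 against monocytes in both brain groups, and Treml2 in all 3 comparisons held in all 21 alternatives. Signs turned only for differences that had not passed. Between the brain groups these were Trem1 (-0.041 with array weights), Trem3 (-0.032 with array weights, and -0.0097 to 0.374 with an array left out) and Treml4 (0.076 under cyclic loess, 0.134 without both Ly6C-high replicate 2 and Ly6C-low replicate 3, and -0.316 to 0.016 with an array left out). Against monocytes they were Treml1 in Ly6C-high microglia (-0.030 with array weights, and -0.020 to 0.199 with an array left out) and Tyrobp in Ly6C-low microglia (0.173 under cyclic loess). Tyrobp passed between the brain groups with array weights (-1.23, adjusted p = 0.0170), and its call in Ly6C-high microglia against monocytes, like that of Trem2, was lost under several settings given above; that of Trem2 was also lost with an intensity trend and robust fit (0.0516). The causes were not tested.

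The number of all genes called between the brain groups was 3080, 2038 when only the 6 arrays compared were fitted, and 1956 to 3888 with an array left out, the lowest without Ly6C-low replicate 3 (2011 without replicate 2). It was 4290 for Ly6C-high microglia against monocytes and 2505 to 6091 with an array left out, the lowest without monocyte replicate 1 (2511 without replicate 2). For Ly6C-low microglia against monocytes it was 2894, 4614 with only the 6 arrays, 5738 with array weights, and 1864 to 3778 with an array left out, the lowest without monocyte replicate 1. With the title number as a replicate block the 3 counts were 2973, 4295 and 2795, and the Trem2 call of Ly6C-high microglia against monocytes was lost (adjusted p = 0.0579). The description numbers 8 and 11 occur in both brain groups, whose arrays of those numbers correlated at 0.30 and 0.21, and with that number as a random block the counts were 3932, 4287 and 2937 and no member call changed. The array weights were 0.14 in Ly6C-high replicate 1 and 0.42 in replicate 2, against 1.39 to 2.10 in monocytes.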
